A study of Mus musculus with 32 samples.

Results

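The Kennedy pathway makes the membrane phospholipids phosphatidylcholine and phosphatidylethanolamine, and 8 of its genes (Chka, Chkb, Etnk1, Pcyt1a, Pcyt2, Chpt1, Cept1 and Selenoi) were followed through 8 groups of sorted mouse CD4 T cells. They are 8 of 35968 genes in the deposited tables, and all 8 were among the 17159 genes that passed the filter on low counts. They were chosen by name as enzymes of the pathway, with no cutoff on a value, but with the summed counts and levels of the 8 groups in view. Which of those values weighed in the choice is not recorded. For that reason Pcyt1a, whose level varied most, is described by its levels and fold changes with no test, and the calls of the other members are given as calls of a fit to the whole table and not as independent support.

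RNA was sequenced from regulatory T cells (Treg, TCRb+CD4+Foxp3+) and conventional T cells (Tconv, TCRb+CD4+Foxp3-) of male C57BL/6 mice carrying the Foxp3GFP reporter, in which green fluorescent protein marks cells that express the Treg transcription factor Foxp3. All groups share that genotype. The groups are liver Treg, liver Tconv, spleen Treg and spleen Tconv cells, each from mice given CCl4 (5 libraries) and from control mice (3 libraries), which makes 32 libraries. CCl4 (carbon tetrachloride) is a liver toxin used in mice to produce injury and fibrosis. The labels give neither its dose and duration nor what control mice received, and they do not say whether libraries come from separate animals, so p-values measure the spread between these libraries, which may be partly technical.

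Each branch of the pathway has the same order of reactions. A kinase phosphorylates choline (Chka, Chkb) or ethanolamine (Etnk1), a cytidylyl transferase joins the product to CTP (Pcyt1a for choline, Pcyt2 for ethanolamine), and a transferase moves the head group onto diacylglycerol (Chpt1 makes phosphatidylcholine, Selenoi makes phosphatidylethanolamine, Cept1 can make both). The cytidylyl transferase step is usually the rate-limiting one, and the Pcyt1a protein, also called CCT alpha, is switched on when it binds membranes poor in phosphatidylcholine. In mice, the ethanolamine branch with Pcyt2 and Selenoi is known for its part in the differentiation of follicular helper T cells.

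The gene with the widest range was Pcyt1a, at chr16:32430921-32475070 on the plus strand (GRCm38). Its 4 coding transcripts start in 2 places in the annotation, 3 bases apart for Pcyt1a-203 and Pcyt1a-201, and 309 and 328 bases further on for Pcyt1a-204 and Pcyt1a-202. The 250 bases before the first start, chr16:32430671-32430920 (plus strand, RefSeq promoter table, GRCm38.p6), are shown because they precede the coding transcripts that carried most of the coding Pcyt1a signal. They hold no annotated exon. Capitals mark matches to the motifs searched.
Pcyt1a: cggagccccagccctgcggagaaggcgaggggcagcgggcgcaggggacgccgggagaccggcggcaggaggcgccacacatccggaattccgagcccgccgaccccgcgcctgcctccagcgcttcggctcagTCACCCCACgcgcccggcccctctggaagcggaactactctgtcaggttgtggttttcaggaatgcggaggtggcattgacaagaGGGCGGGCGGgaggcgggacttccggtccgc
The window was 71.6% G and C, against a median of 52.4% over the same window of all 32851 promoters in the table. Motifs were searched on both strands. The sterol regulatory element TCACNCCAC, the sequence bound by SREBP transcription factors, matched 1 time, 116 bases before the start, and matched in 1.05% of all promoters and in no window of the other members with a promoter in the table, all but Pcyt2. The GC box GGGCGG, bound by Sp1-type factors, matched 2 times in overlapping positions 31 and 27 bases before the start. It matched in 32.7% of all promoters and in at least 1 window of all 7 members in the table. The AP-1 site TGANTCA (6.75% of promoters) and the GATA-type site AGATAA (9.99%) did not match in any window of these 7 members. A match is a description of letters. The other members lie at chr19:3851773-3894369 (Chka), chr15:89426360-89429908 (Chkb), chr6:143167221-143232307 (Etnk1), chr11:120610087-120617936 (Pcyt2), chr10:88452745-88504073 (Chpt1), chr3:106502260-106547802 (Cept1) and chr5:30232581-30272427 (Selenoi), all GRCm38.

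Libraries held 24513124 to 75292019 estimated counts. Foxp3 stood at 909 to 1176 CPM (library-scaled counts, with TMM factors) in the Treg libraries and at 0.681 to 3.43 CPM in the Tconv libraries, as the gates are labelled. In bulk RNA of this kind, fewer cells of a type and less RNA per cell cannot be told apart. The libraries spleen Treg control 2 and 3 and spleen Tconv control 2 and 3 stood apart from the rest: their Fos level was 19.4 to 26.4 CPM, whereas control library 1 had 843 CPM for spleen Treg and 804 CPM for spleen Tconv. Spleen results are therefore given with and without them where they matter. The hepatocyte list (11 genes measured) summed to 155 to 533 CPM in liver Treg libraries after CCl4, to 137 to 202 CPM in liver Treg control libraries, to 183 to 606 CPM in liver Tconv libraries after CCl4 and to 158 to 405 CPM in liver Tconv control libraries. The highest gene of the liver Treg sum was Trf (148 to 267 CPM after CCl4, 95.0 to 127 CPM in control). The other measured genes of the list had lower medians after CCl4 than in control in liver Treg cells. Alb had medians of 5.49 CPM after CCl4 (1.07 to 100.5) and 14.0 CPM in control (11.6 to 27.6). Medians under 1 CPM were found for 8 of the 11 genes after CCl4 and for 0 in control. The B cell list reached 1863 to 2191 CPM in liver Treg libraries after CCl4 and 1784 to 2354 CPM in liver Treg control libraries, and nearly all of it was Ighm, while Pax5 stayed at or under 0.44 CPM.

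Pcyt1a was high in liver Treg cells, and higher again after CCl4. The 5 liver Treg libraries after CCl4 held 284, 475, 522, 439 and 515 CPM, against 70.9, 101 and 73.6 CPM in the 3 liver Treg control libraries. Every CCl4 library lay above every control library. Means were 447 ± 96.9 CPM after CCl4 and 81.9 ± 16.7 CPM in control (SD, n = 5 and 3). The fitted log2 fold change was 2.45 ± 0.18 (SE), a 5.46-fold difference. Leaving out any 1 of these 8 libraries kept the log2 fold change between 2.35 and 2.63.

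In the other 6 groups Pcyt1a stood at or under 34.7 CPM. Spleen Treg cells after CCl4 came next, with 29.1, 25.7, 27.0, 34.7 and 33.0 CPM, against 24.1, 22.5 and 14.7 CPM in spleen Treg control libraries. The libraries of these groups did not overlap, and the log2 fold change was 0.55 ± 0.17. Without spleen control libraries 2 and 3 it was 0.31 ± 0.25. Liver Tconv cells had 19.9, 22.0, 14.9, 15.8 and 18.4 CPM after CCl4, against 22.1, 23.8 and 21.9 CPM in control, a log2 fold change of -0.31 ± 0.17 with overlapping values. Spleen Tconv cells had 18.4, 14.7, 19.1, 20.3 and 19.4 CPM after CCl4, against 16.4, 17.6 and 15.6 CPM in control, a log2 fold change of 0.15 ± 0.17 with overlapping values.

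In descending order, the group means were 447 CPM in liver Treg after CCl4, 81.9 in liver Treg control, 29.9 in spleen Treg after CCl4, 22.6 in liver Tconv control, 20.4 in spleen Treg control, 18.4 in spleen Tconv after CCl4, 18.2 in liver Tconv after CCl4 and 16.5 CPM in spleen Tconv control. The first 3 groups were separate from each other and from the rest, since no library of one overlapped a library of its neighbour in this order. From liver Tconv control downwards, libraries of neighbouring groups overlapped at every step, with 21.9 to 23.8 CPM in liver Tconv control, 14.7 to 24.1 in spleen Treg control, 14.7 to 20.3 in spleen Tconv after CCl4, 14.9 to 22.0 in liver Tconv after CCl4 and 15.6 to 17.6 CPM in spleen Tconv control. The highest group mean was 27.0 times the lowest. For the other 7 members that ratio was between 1.53 (Chkb) and 3.12 (Chka).

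**Figure D1:**
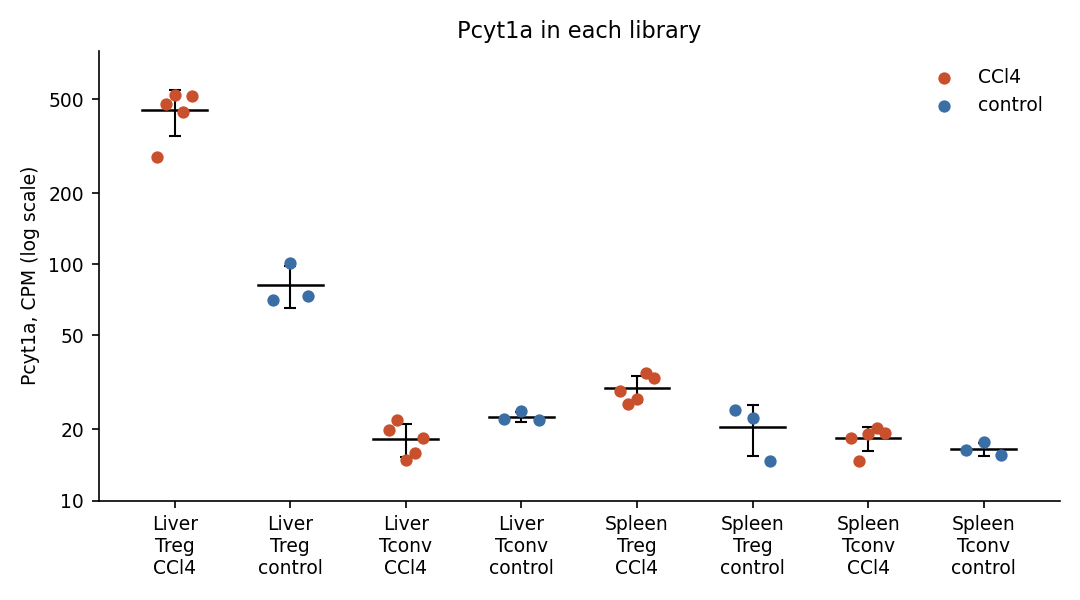
Pcyt1a in each of the 32 libraries, as CPM (TMM-scaled) on a log axis, with 1 point per library, a horizontal line at each group mean and error bars of 1 SD. The 5 liver Treg libraries after CCl4 lie at 284 to 522 CPM, above the 3 liver Treg control libraries at 70.9 to 101 CPM, and the other 6 groups lie at or under 34.7 CPM.

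The CCl4 comparisons of Pcyt1a were set against each other in the same fit. The log2 fold change after CCl4 was larger in liver Treg than in liver Tconv cells by 2.76 ± 0.24 (SE), and larger in liver Treg than in spleen Treg cells by 1.90 ± 0.24. Between spleen Treg and spleen Tconv cells the Pcyt1a difference was 0.40 ± 0.24. Of the other 7 members, edgeR called 0 in the test of the first difference, against 3.64% of all genes tested, and 0 in the second, against 5.48%. In both, 0 of the 7 were called by DESeq2 and 0 had an unadjusted p under 0.05 in edgeR. Between liver and spleen Tconv cells 0 of the 7 were called by edgeR, against 0.0874% of all genes tested, with 1 (Chka) at an unadjusted p under 0.05.

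Pcyt1a also separated liver Treg cells from the other cell sets in control mice. Averaged over both treatments with equal weight, it was 7.74-fold higher in liver Treg than in spleen Treg cells (log2 2.95 ± 0.13), and 9.43-fold higher in Treg than in Tconv cells of the liver (log2 3.24 ± 0.13). These averages join unlike values, so they were also taken within each treatment, a split added after the values had been seen. Liver Treg exceeded spleen Treg by 14.95-fold after CCl4 (log2 3.90 ± 0.16) and by 4.01-fold in control (log2 2.00 ± 0.19). Liver Treg exceeded liver Tconv by 24.6-fold after CCl4 (log2 4.62 ± 0.17) and by 3.62-fold in control (log2 1.86 ± 0.19). In Tconv cells, liver and spleen differed by log2 -0.01 ± 0.15 after CCl4 and by 0.45 ± 0.19 in control. Spleen Treg exceeded spleen Tconv by log2 0.71 ± 0.15 after CCl4 and by 0.31 ± 0.19 in control.

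Levels can be set side by side across genes only per length, which the deposited TPM, counts scaled by transcript length and library, allow. Summed over transcripts, Pcyt1a stood at 279 ± 56.2 TPM in liver Treg cells after CCl4 and was the highest of the 8 members there. It stood at 47.4 ± 5.96 TPM in liver Treg control, where it ranked 4 among the 8. By summed TPM, Pcyt2 was the highest member in all 7 other groups. It stood at 115 ± 4.09 TPM in liver Treg cells after CCl4 and at 144 ± 14.0 TPM in liver Treg control. The TPM ratio of the choline to the ethanolamine cytidylyl transferase, Pcyt1a over Pcyt2, was 2.42 ± 0.48 in liver Treg cells after CCl4 and 0.331 ± 0.045 in liver Treg control (SD, n = 5 and 3). In the other 6 groups its mean lay between 0.041 in spleen Tconv control and 0.122 in spleen Treg after CCl4. These sums include transcripts annotated as retained introns, and the part of the TPM in coding transcripts differed between members. Across group means it was 14.5% to 25.6% for Selenoi and 98.1% to 99.7% for Cept1. For Pcyt2 it was 38.8% to 43.6% in liver and 54.1% to 56.7% in spleen, and for Pcyt1a 60.1% to 77.2%. The ranks and the ratio are therefore those of summed TPM and need not hold for coding transcripts.

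**Figure D2:**
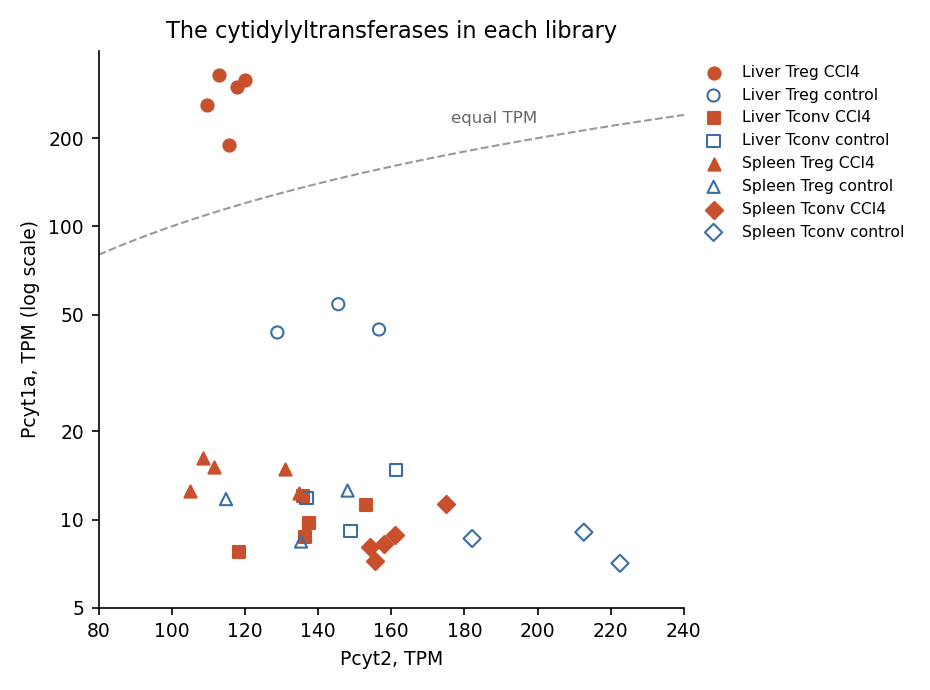
Pcyt1a (log axis) against Pcyt2 (linear axis) in each library, both as deposited TPM summed over transcripts, with filled points for CCl4, open points for control, a shape for each cell set and a dashed line where both genes have equal TPM. The 5 liver Treg libraries after CCl4 lie above the line with Pcyt1a over Pcyt2 ratios of 1.64 to 2.91, and the 3 liver Treg control libraries have ratios of 0.284 to 0.373.

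In liver Treg cells after CCl4 the edgeR quasi-likelihood fit called 3 of the 7 members other than Pcyt1a at a Benjamini-Hochberg adjusted p under 0.05, against 14.9% of all genes tested. Of these 3, 1 was higher (Selenoi, against 7.55% of all genes tested) and 2 were lower (Pcyt2 and Etnk1, against 7.34%). The median log2 fold change of all 8 members was -0.04, against -0.00 over all genes tested. Library values of CCl4 and control did not overlap for 2 of the 7 (Pcyt2 and Selenoi), against 19.1% of all genes tested.

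Of the kinases, Etnk1 was the one called. The 5 liver Treg libraries after CCl4 held 88.0, 100.03, 92.0, 95.8 and 96.5 CPM of Etnk1, against 112, 96.9 and 150.3 CPM in the 3 control libraries. The CCl4 values were close together and the control values were spread, with overlap. The log2 fold change was -0.34 ± 0.11 (adjusted p = 0.0353, edgeR), and without control library 3 it was -0.15 (adjusted p = 0.454, edgeR). The call was also lost without CCl4 library 1, 3 or 4, with no filter on low counts (-0.34, adjusted p = 0.0536, edgeR), in a fit of these libraries alone (-0.35, adjusted p = 0.0883, edgeR), with the replicate block (-0.31, adjusted p = 0.0736, edgeR), with limma-voom (-0.31, adjusted p = 0.0672) and with limma on log2(TPM + 1) (-0.23, adjusted p = 0.276). The choline kinase Chka averaged 40.4 ± 4.71 CPM after CCl4 and 37.1 ± 4.04 CPM in control, with a log2 fold change of 0.12 ± 0.21 (adjusted p = 0.776, edgeR). Chkb averaged 76.3 ± 9.38 CPM after CCl4 and 77.5 ± 10.4 CPM in control, with a log2 fold change of -0.02 ± 0.10 (adjusted p = 0.933, edgeR).

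Pcyt2, the cytidylyl transferase of the ethanolamine branch, was lower in liver Treg cells after CCl4. It held 76.9, 78.1, 80.5, 73.5 and 71.6 CPM after CCl4, against 103, 95.1 and 81.7 CPM in control. All 5 CCl4 libraries lay below the 3 control libraries, the nearest pair being 80.5 CPM after CCl4 and 81.7 CPM in control. The log2 fold change was -0.29 ± 0.081, or 0.816-fold (adjusted p = 0.0126, edgeR). It missed the threshold without control library 1 (log2 -0.22, adjusted p = 0.134, edgeR) and without control library 2 (log2 -0.28, adjusted p = 0.0522, edgeR).

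Selenoi, the ethanolamine phosphotransferase, was higher in liver Treg cells after CCl4. It held 44.1, 42.8, 36.8, 38.8 and 41.8 CPM after CCl4, against 30.2, 24.04 and 34.9 CPM in control. The ranges did not overlap. The log2 fold change was 0.46 ± 0.13, or 1.38-fold (adjusted p = 0.0175, edgeR). It missed the threshold without control library 1 (log2 0.47, adjusted p = 0.0535, edgeR), without control library 2 (log2 0.33, adjusted p = 0.160, edgeR) and with limma on log2(TPM + 1) (0.41, adjusted p = 0.178). Cept1, which can serve both branches, averaged 62.8 ± 3.14 CPM after CCl4 and 65.6 ± 4.01 CPM in control, with a log2 fold change of -0.06 ± 0.080 (adjusted p = 0.697, edgeR). Chpt1, the cholinephosphotransferase, averaged 6.31 ± 0.773 CPM after CCl4 and 6.59 ± 0.483 CPM in control, with a log2 fold change of -0.06 ± 0.16 (adjusted p = 0.869, edgeR).

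Markers of other cells were read in the same comparison. Of the 11 hepatocyte, 6 B cell and 3 CD8 or NK cell markers measured, none was called at adjusted p under 0.05 by edgeR or DESeq2 in liver Treg cells after CCl4, with 2 (hepatocyte) at an unadjusted p under 0.05. Of 10 myeloid markers 1 was called lower, and of 6 stellate and endothelial cell markers 1 was called higher and 2 lower. The stellate and endothelial list summed to 103 to 170 CPM after CCl4 and to 201 to 217 CPM in control, most of it Pecam1 (95.2 to 122 CPM after CCl4, 189.6 to 210.0 CPM in control). The immediate early genes, which respond to handling of cells, summed to 8246 to 10235 CPM after CCl4 and to 6502 to 7585 CPM in control, with none of 8 called by edgeR or DESeq2 and 0 at an unadjusted p under 0.05. Their part in the member results was not tested.

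**Figure D3:**
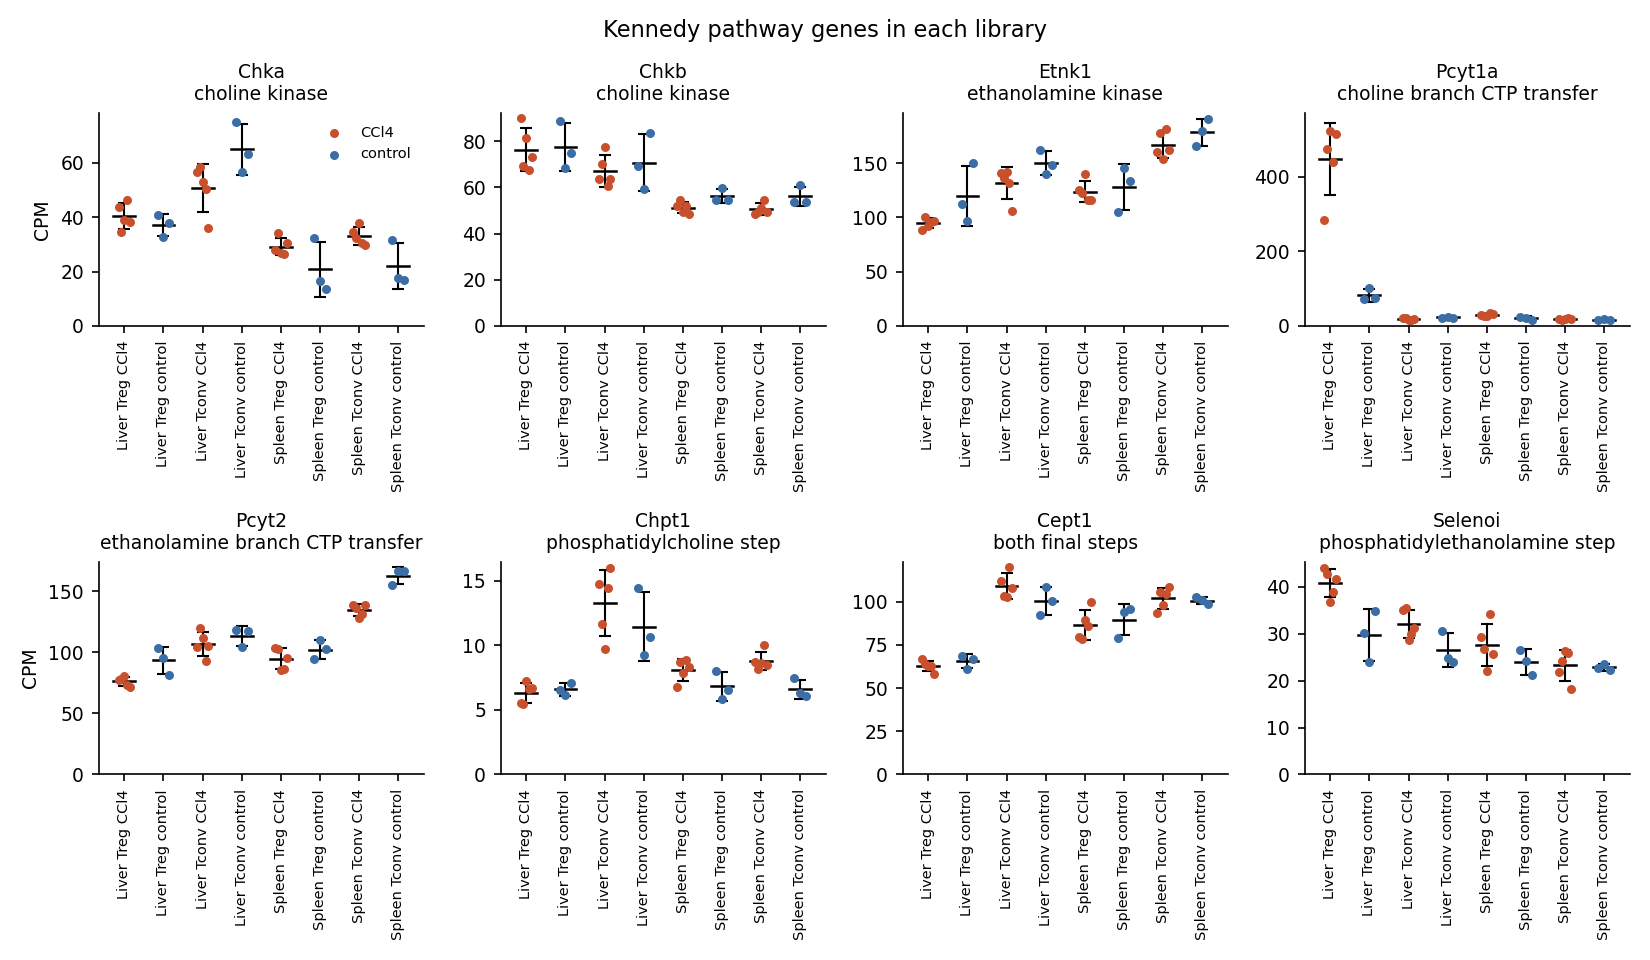
The 8 members in each library, as CPM (TMM-scaled) on linear axes that start at 0, 1 panel per gene, with 1 point per library, a horizontal line at each group mean and error bars of 1 SD. Pcyt1a spans 14.7 to 522 CPM over the 32 libraries, while Chkb stays between 48.4 and 90.2 CPM.

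In the other 3 cell sets, none of the other 7 members was called between CCl4 and control by edgeR. In liver Tconv cells this stood against 0.326% of all genes tested. There, library values of all 7 overlapped, against 6.65% of all genes tested that did not, and 1 member (Selenoi) had an unadjusted p under 0.05. Neither DESeq2 nor limma, on counts (voom) or on TPM, called a member there. Selenoi averaged 32.1 ± 3.04 CPM after CCl4 and 26.5 ± 3.62 CPM in liver Tconv control (log2 0.28 ± 0.13, adjusted p = 0.369, edgeR), and Chka averaged 50.8 ± 8.93 CPM after CCl4 and 65.0 ± 9.38 CPM in control (log2 -0.35 ± 0.20, adjusted p = 0.477, edgeR).

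In spleen Treg cells 0 of these 7 members were called by edgeR, against 1.18% of all genes tested, with 1 (Chka) at an unadjusted p under 0.05. DESeq2 called 0. Library values were apart for 1 (Chkb), against 10.9% of all genes tested. Chka held 28.1, 34.2, 26.7, 26.4 and 30.6 CPM after CCl4, against 32.4, 16.4 and 13.7 CPM in control. Control library 1 lay inside the CCl4 range, and the low values were those of libraries 2 and 3, which stood apart in Fos. The log2 fold change was 0.49 ± 0.21 (adjusted p = 0.292, edgeR). It was -0.15 ± 0.20 without libraries 2 and 3 of both spleen control sets (adjusted p = 0.922, edgeR) and 0.95 without control library 1 (adjusted p = 0.00739, edgeR). In this comparison 3 of the 10 myeloid markers, 3 of the 8 immediate early genes and 1 of the 11 hepatocyte markers were called higher after CCl4, and the myeloid list summed to 59.9 to 120.1 CPM after CCl4 and to 20.3 to 27.9 CPM in control. Their part in the member values was not tested.

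In spleen Tconv cells 0 of these 7 members were called by edgeR, against 1.07% of all genes tested, with 3 (Chka, Chpt1 and Pcyt2) at an unadjusted p under 0.05. DESeq2 called 1, Pcyt2. Library values were apart for 2 members (Pcyt2 and Chpt1), against 8.82% of all genes tested. Pcyt2 held 139, 136, 128, 131 and 139 CPM after CCl4, against 155, 166 and 167 CPM in control, without overlap. Its log2 fold change was -0.27 ± 0.081 (adjusted p = 0.0865, edgeR). Control library 1, at 155 CPM, lay nearest to the CCl4 values, and control libraries 2 and 3, which stood apart in Fos, lay further off. Chka held 34.6, 32.3, 38.0, 30.7 and 29.8 CPM after CCl4, against 31.8, 17.5 and 16.9 CPM in control. Again the low values were those of control libraries 2 and 3. Its log2 fold change was 0.58 ± 0.21 (adjusted p = 0.178, edgeR), it was 0.06 ± 0.20 without libraries 2 and 3 of both spleen control sets, and 0.94 without control library 1 (adjusted p = 0.0122, edgeR). Chpt1 averaged 8.80 ± 0.707 CPM after CCl4 and 6.60 ± 0.744 CPM in control, a log2 fold change of 0.41 ± 0.16 (adjusted p = 0.231, edgeR). Its control libraries 1, 2 and 3 held 7.44, 6.31 and 6.04 CPM. Here too library 1 lay nearest to the CCl4 libraries, which held 8.14 to 9.997 CPM.

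**Figure D4:**
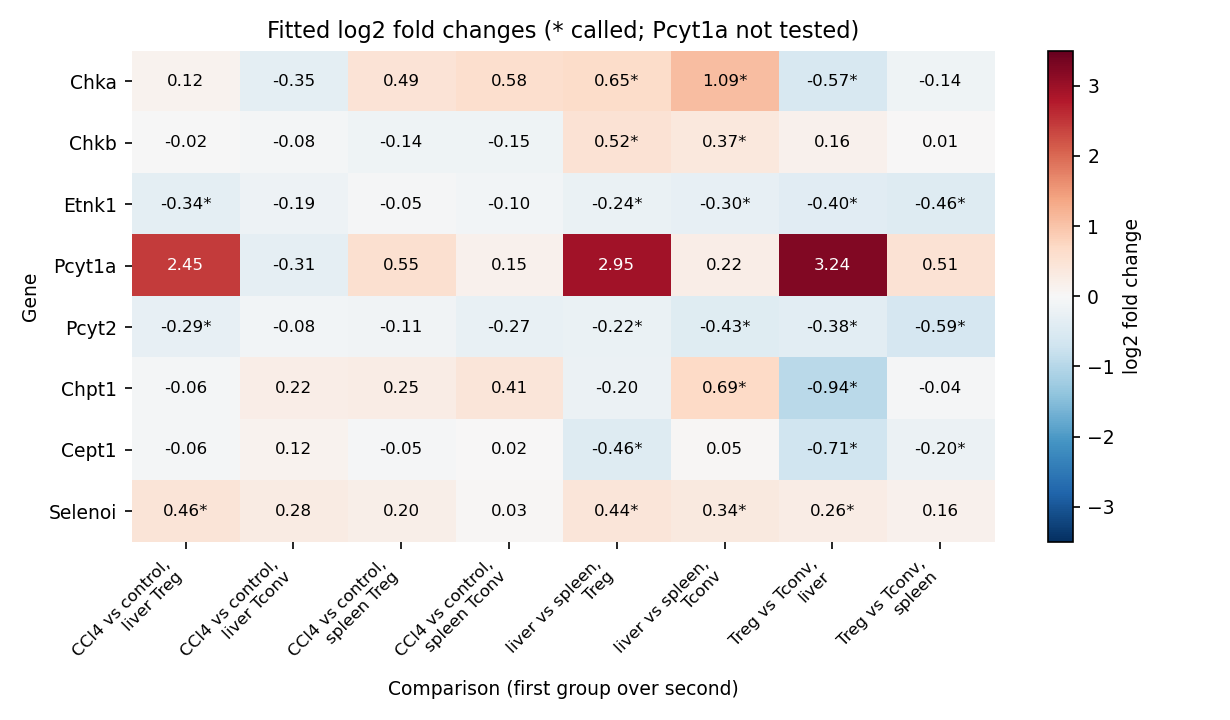
Fitted log2 fold changes of the 8 members (down the page) in the 8 comparisons (across), from the edgeR fit to all 32 libraries, with the value printed in each cell, red for higher and blue for lower, and a star where the adjusted p was under 0.05, which is not marked for Pcyt1a. Pcyt1a reaches 2.45 in liver Treg cells after CCl4, 2.95 between liver and spleen Treg cells and 3.24 between Treg and Tconv cells of the liver, and every other member stays within 1.09 of 0.

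Between liver and spleen most members differed, as did most genes. These contrasts average both treatments, 8 libraries a side. In Treg cells edgeR called 6 of the 7 members other than Pcyt1a, against 60.6% of all genes tested, and in Tconv cells 6 of the 7, against 55% of all genes tested. Within both treatments, library values did not overlap for 3 members in Treg cells (Chka, Chkb and Cept1), against 29.1% of all genes tested, and for 3 in Tconv cells (Etnk1, Pcyt2 and Selenoi), against 25.7%. Without libraries 2 and 3 of both spleen control sets, 4 of the 7 were called in Treg cells, against 42.7% of all genes tested. In control libraries alone, 3 (Chka, Chkb and Cept1) were called in Treg cells, against 41.6% of all genes tested.

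Summed over transcripts, both choline kinases were higher in liver than in spleen cells. Chka ranged from 32.7 to 46.5 CPM in liver Treg and from 13.7 to 34.2 CPM in spleen Treg libraries (log2 0.65 ± 0.15, adjusted p = 0.000353, edgeR). In Tconv cells it ranged from 35.9 to 75.1 CPM in liver and from 16.9 to 38.0 CPM in spleen (log2 1.09 ± 0.15 or 2.12-fold, adjusted p = 3.49e-07, edgeR), the widest organ difference of any member other than Pcyt1a. Without the 4 spleen control libraries that stood apart, the Chka values were 0.33 ± 0.12 in Treg (adjusted p = 0.0335, edgeR) and 0.82 ± 0.13 in Tconv cells (adjusted p = 1.23e-05, edgeR). Chkb ranged from 67.5 to 90.2 CPM in liver Treg and from 48.4 to 59.9 CPM in spleen Treg libraries, which did not overlap (log2 0.52 ± 0.073, adjusted p = 5.56e-07, edgeR). In Tconv cells Chkb differed by log2 0.37 ± 0.073 (adjusted p = 8.29e-05, edgeR). Much of this signal is not in coding transcripts, and the leading Chkb transcript, Chkb-208, is a retained intron. Across group means, coding transcripts held 23.4% to 27.4% of the Chkb TPM in liver and 26.6% to 31.4% in spleen. For Chka they held 39.8% to 62.0%. Whether the organ differences hold for coding transcripts was not tested.

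The ethanolamine genes Etnk1 and Pcyt2 were lower in liver than in spleen, most plainly in Tconv cells. Pcyt2 ranged from 93.0 to 119.5 CPM in liver Tconv and from 128 to 167 CPM in spleen Tconv libraries (log2 -0.43 ± 0.058, adjusted p = 3.14e-07, edgeR). In Treg cells its log2 difference was -0.22 ± 0.058 (adjusted p = 0.00153, edgeR). That call was lost without the 4 libraries that stood apart (-0.17, adjusted p = 0.0765, edgeR), and the sign changed with limma on log2(TPM + 1) (0.04, adjusted p = 0.582). Taken within treatment, it was -0.32 after CCl4 (adjusted p = 0.000462, edgeR) and -0.13 in control (adjusted p = 0.257, edgeR). Etnk1 averaged 131 ± 14.7 CPM after CCl4 and 149.98 ± 11.1 CPM in control in liver Tconv cells, against 167 ± 11.7 CPM after CCl4 and 179 ± 12.4 CPM in control in spleen Tconv cells (log2 -0.30 ± 0.079, adjusted p = 0.00205, edgeR). In Treg cells Etnk1 differed by log2 -0.24 ± 0.079 (adjusted p = 0.00924, edgeR), and by -0.10 without the 4 libraries (adjusted p = 0.406, edgeR). Within treatment, the Etnk1 difference was -0.39 after CCl4 (adjusted p = 0.00131, edgeR) and -0.10 in control (adjusted p = 0.549, edgeR) in Treg cells, and -0.34 after CCl4 (adjusted p = 0.00421, edgeR) and -0.25 in control (adjusted p = 0.115, edgeR) in Tconv cells.

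Selenoi was higher in liver in Treg cells (log2 0.44 ± 0.093, adjusted p = 0.000205, edgeR) and in Tconv cells (log2 0.34 ± 0.094, adjusted p = 0.00306, edgeR). Within treatment, it was called after CCl4 (0.56 in Treg, adjusted p = 0.000136, and 0.46 in Tconv cells, adjusted p = 0.00144, edgeR) and not in control (0.31 in Treg, adjusted p = 0.0940, and 0.21 in Tconv cells, adjusted p = 0.278, edgeR). CCl4 minus control, the organ difference of Selenoi itself differed by 0.26 ± 0.19 in Treg (adjusted p = 0.5005, edgeR) and by 0.25 ± 0.19 in Tconv cells (adjusted p = 0.69996, edgeR). The other transferases went different ways in the 2 cell types. Cept1 ranged from 58.0 to 68.8 CPM in liver Treg and from 78.2 to 99.7 CPM in spleen Treg libraries, without overlap (log2 -0.46 ± 0.056, adjusted p = 5.97e-08, edgeR), while in Tconv cells its log2 difference was 0.05 ± 0.056 (adjusted p = 0.488, edgeR). The test of that difference gave -0.50 ± 0.080 (Treg minus Tconv, adjusted p = 2.9e-05, edgeR). Cept1 overlaps the gene Dennd2d, whose counts by group are given below and limit the Cept1 values. In Tconv cells Chpt1 was higher in liver than in spleen, at 9.28 to 15.97 CPM in liver and 6.04 to 9.997 CPM in spleen (log2 0.69 ± 0.12, adjusted p = 8.44e-06, edgeR), and in Treg cells its log2 difference was -0.20 ± 0.12 (adjusted p = 0.129, edgeR). The test of the difference gave -0.90 ± 0.16 (adjusted p = 0.000177, edgeR). These 2 of the 7 members were called in the liver and spleen difference between Treg and Tconv cells, against 19.4% of all genes tested. All 11 hepatocyte markers were called higher in liver than in spleen in both cell types. Of the 8 immediate early genes, 4 were called higher and 1 lower in Treg cells, and 6 higher and 0 lower in Tconv cells. Of 10 myeloid markers, 1 was called higher and 5 lower in Treg cells, and 2 higher and 4 lower in Tconv cells. Of 5 T cell genes (Cd3e, Cd3g, Cd4, Trac and Trbc2), 4 were called lower in both. Of all genes tested, 60.6% were called in Treg and 55% in Tconv cells. The part of these lists in the member values was not tested.

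Between Treg and Tconv cells of the liver, edgeR called 6 of the 7 members other than Pcyt1a, against 51.8% of all genes tested, and in the spleen 3 of the 7, against 39.7%. In control libraries alone, 2 (Pcyt2 and Etnk1) were called in the spleen, against 22.1% of all genes tested. Within both treatments, library values did not overlap for 3 members in liver (Pcyt2, Chpt1 and Cept1), against 23.5% of all genes tested, and for 2 in spleen (Pcyt2 and Etnk1), against 19.6%. Selenoi was higher in Treg than in Tconv cells of the liver (log2 0.26 ± 0.093, adjusted p = 0.0211, edgeR). That call was lost in control libraries alone (0.17, adjusted p = 0.405, edgeR), with limma on log2(TPM + 1) (0.24, adjusted p = 0.165), without liver Treg control library 3 (0.19, adjusted p = 0.104, edgeR) and without liver Tconv control library 2 (0.23, adjusted p = 0.0590, edgeR) or 3 (0.22, adjusted p = 0.0695, edgeR). The other called members were lower in Treg cells. The 2 with the widest gap in liver were the transferases Chpt1 and Cept1. Chpt1 ranged from 5.44 to 7.21 CPM in liver Treg and from 9.28 to 15.97 CPM in liver Tconv libraries (log2 -0.94 ± 0.12, adjusted p = 6.94e-08, edgeR). Cept1 ranged from 58.0 to 68.8 CPM in liver Treg and from 92.5 to 120.1 CPM in liver Tconv libraries (log2 -0.71 ± 0.057, adjusted p = 1.18e-11, edgeR). For neither gene did libraries of the cell types overlap in liver. The limit from the overlap of Cept1 with Dennd2d applies here too. In spleen, Cept1 differed by log2 -0.20 ± 0.056 (adjusted p = 0.00451, edgeR; -0.17 in control libraries alone, adjusted p = 0.199, edgeR; -0.13 with limma on log2(TPM + 1), adjusted p = 0.156) and Chpt1 by -0.04 ± 0.11 (adjusted p = 0.842, edgeR).

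Pcyt2 and Etnk1, of the ethanolamine branch, were lower in Treg cells of both organs. Pcyt2 ranged from 85.6 to 109.7 CPM in spleen Treg and from 128 to 167 CPM in spleen Tconv libraries, without overlap (log2 -0.59 ± 0.058, adjusted p = 1.23e-09, edgeR), and in liver the log2 difference was -0.38 ± 0.058 (adjusted p = 2.04e-06, edgeR). Etnk1 differed by log2 -0.46 ± 0.079 in spleen (adjusted p = 2.51e-05, edgeR) and by -0.40 ± 0.079 in liver (adjusted p = 9.39e-05, edgeR). With limma on log2(TPM + 1) both missed the threshold in liver (Pcyt2 -0.15, adjusted p = 0.0589, and Etnk1 -0.20, adjusted p = 0.0790). Chka was lower in Treg than in Tconv cells of the liver (log2 -0.57 ± 0.15, adjusted p = 0.00157, edgeR), by -0.33 ± 0.18 after CCl4 (adjusted p = 0.134, edgeR) and by -0.81 ± 0.23 in control (adjusted p = 0.00696, edgeR). The difference between these treatments was 0.48 ± 0.29 (adjusted p = 0.474, edgeR). In spleen, Chka differed by log2 -0.14 ± 0.15 (adjusted p = 0.501, edgeR). Chkb was called in neither organ by edgeR (log2 0.16 ± 0.073 in liver, adjusted p = 0.0701, and 0.01 ± 0.073 in spleen, adjusted p = 0.945, edgeR). In liver it was called by DESeq2 and by limma on log2(TPM + 1), and not by limma-voom. In liver, 7 of 11 hepatocyte markers were called lower and 2 of 6 B cell markers higher in Treg than in Tconv cells, and in spleen 4 of 6 B cell and 3 of 10 myeloid markers were called higher. Their part was not tested.

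The transcripts of Pcyt1a moved together in liver Treg cells. Each of its 8 annotated transcripts had a higher mean after CCl4 than in control, with no overlap between libraries, and the ratios of means lay between 4.84 and 8.95. Pcyt1a-201, the leading coding transcript, averaged 110.2 ± 25.5 TPM after CCl4 and 20.1 ± 5.34 TPM in control. Pcyt1a-204, which starts downstream, averaged 38.0 ± 8.55 TPM after CCl4 and 6.11 ± 2.51 TPM in control. The pair of coding transcripts with the downstream start made up 34.2 ± 3.48% of the coding TPM after CCl4 and 32.2 ± 13.2% in control, so the promoter shown above precedes the start of most of the coding signal in both groups. Retained-intron transcripts were measured too: Pcyt1a-206 averaged 28.3 TPM after CCl4 and 3.16 TPM in control.

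**Figure D5:**
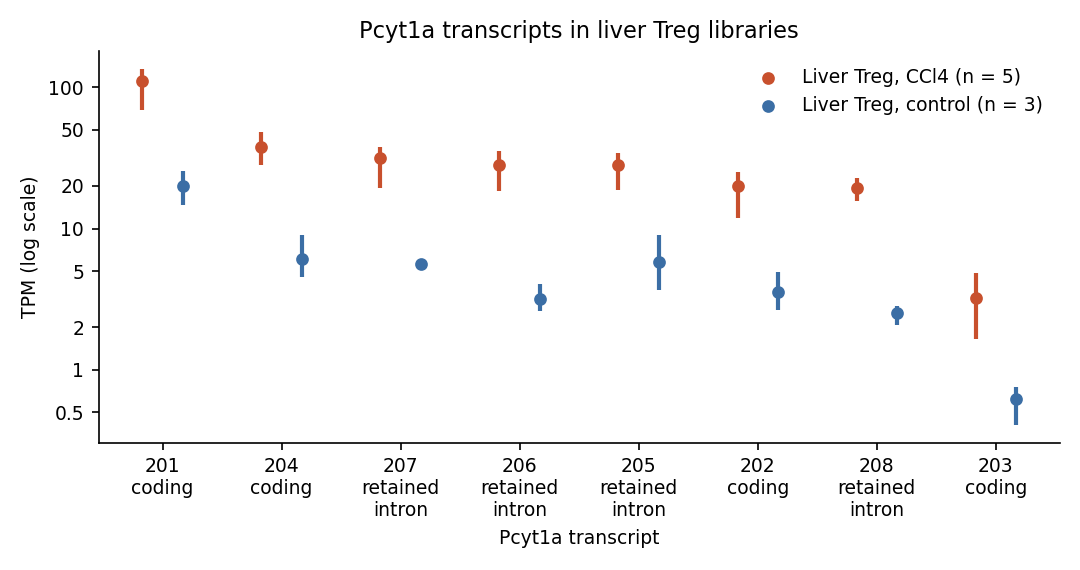
The 8 Pcyt1a transcripts in liver Treg cells as deposited TPM on a log axis, with a point at each group mean and a line spanning the lowest to the highest library, CCl4 beside control. For every transcript the 5 CCl4 libraries lie above the 3 control libraries, with means of 110.2 and 20.1 TPM for Pcyt1a-201.

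How a gene's signal divides among its transcripts is a measure apart from its summed level, so the share of each member's leading transcript (the one with the highest mean TPM) was tested with exact two-sided permutation tests, within treatment for organs and cell types, 64 in all with Benjamini-Hochberg adjustment. Of these, 5 passed an adjusted p of 0.05. For Chpt1, the coding transcript Chpt1-202 held 66.0 ± 6.05% of the gene's TPM in liver Treg libraries, against 42.5 ± 5.75% in spleen Treg libraries (exact permutation p = 0.000397, adjusted p = 0.00635, n = 8 each). In liver Tconv libraries its share was 38.8 ± 7.40%, which differed from liver Treg by 27.1 percentage points with the same exact permutation p and adjusted p. Chpt1-202 itself stood at 5.31 ± 1.06 TPM after CCl4 and 4.83 ± 0.829 TPM in control in liver Treg cells, and at 5.45 ± 2.16 TPM after CCl4 and 4.31 ± 0.778 TPM in control in liver Tconv cells. Chpt1-207, annotated as a target of nonsense-mediated decay, stood at 1.24 ± 0.607 TPM after CCl4 and 1.35 ± 0.515 TPM in control in liver Treg cells, and at 6.15 ± 1.82 TPM after CCl4 and 5.69 ± 1.81 TPM in control in liver Tconv cells. In TPM, the gap between liver Treg and liver Tconv cells lay more in Chpt1-207 than in Chpt1-202.

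For Pcyt2, the coding transcript Pcyt2-201 held 35.3 ± 1.18% of the gene's TPM in liver Treg libraries, against 44.8 ± 3.14% in spleen Treg libraries (exact permutation p = 0.000397, adjusted p = 0.00635, n = 8 each). In Tconv libraries it held 34.4 ± 2.11% in liver and 41.2 ± 2.13% in spleen, with the same exact permutation p and adjusted p. There are 5040 arrangements within treatment, and 0.000397 is the smallest p they can give. For Etnk1, Etnk1-201 held 89.0 ± 4.33% in spleen Treg and 92.8 ± 2.87% in spleen Tconv libraries (exact permutation p = 0.00198, adjusted p = 0.0254, n = 8 each). No leading transcript passed in a CCl4 comparison, where the 56 arrangements of 5 against 3 libraries cannot give a p under 0.0179. The Pcyt1a-201 share in liver Treg cells was 39.3 ± 2.65% after CCl4 and 42.0 ± 7.70% in control (exact permutation p = 0.482, adjusted p = 0.718, n = 5 and 3).

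Several members overlap other genes, and the strand setting of the counting is not given in the sources used here, so overlapping reads cannot be told apart with certainty. Pcyt1a shares 567 bases with Slc51a on the opposite strand, which held 0.353% as many counts as Pcyt1a over all libraries. It also shares 107 bases with the antisense gene 2210020O09Rik. Chka shares 74 bases with Gm16066 and 165 with AC133523.2, and Etnk1 shares 201 with 1700126G02Rik, all antisense. These antisense genes had no entry among the summed genes, so their counts could not be compared. Cept1 shares 771 bases with Dennd2d, which as a whole gene held 194% as many counts as Cept1. How many of these counts came from the shared bases is not known, so the values of Cept1 are uncertain by an unknown amount. By group, Dennd2d counts as a percentage of Cept1 counts were 71.5% after CCl4 and 94.3% in control in liver Treg cells, and 187% and 190% in liver Tconv cells. In spleen they were 130% and 132% in Treg cells and 314% and 323% in Tconv cells. Dennd2d was lowest against Cept1 in liver Treg cells, where Cept1 was also lowest. Its part in the Cept1 values was not tested. Chkb overlaps Gm44502 (1.43% of its counts) and C730034F03Rik (8.47%), and Chpt1 overlaps Sycp3 (0.0891%).

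The neighbours of the pathway in lipid metabolism were read from a list of 59 genes, of which 55 were tested. In liver Treg cells after CCl4, 8 were called higher and 6 lower, 25.5% of the list against 14.9% of all genes tested, with a median log2 fold change of -0.04. By group, 5 of 12 genes of phospholipid hydrolysis were called higher and 2 lower. Of 12 genes that supply diacylglycerol 2 were called higher and 1 lower. Of 6 uptake genes 1 was called lower, and neither of the CTP synthases Ctps (log2 0.16) and Ctps2 (-0.13) nor either second isozyme was called. Among the hydrolysis genes, the phospholipase D Pld1, which releases choline from phosphatidylcholine, averaged 8.32 ± 1.89 CPM after CCl4 and 3.23 ± 0.615 CPM in control (log2 1.37, adjusted p = 0.0124, edgeR). The lysosomal phospholipase A2 Pla2g15 averaged 10.04 ± 2.88 CPM after CCl4 and 5.38 ± 0.937 CPM in control (log2 0.90, adjusted p = 0.00369, edgeR). It was also higher in liver Tconv cells, at 6.62 ± 1.69 CPM after CCl4 and 2.85 ± 0.337 CPM in control (log2 1.22, adjusted p = 0.0317, edgeR).

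Other neighbours with low counts had large folds in liver Treg cells after CCl4. The lipin Lpin3, which makes diacylglycerol from phosphatidic acid, averaged 4.70 ± 3.89 CPM after CCl4 and 0.596 CPM in control (log2 2.95, adjusted p = 0.0348, edgeR), and Gdpd1, a glycerophosphodiester phosphodiesterase domain protein, averaged 1.27 CPM after CCl4 and 0.199 CPM in control (log2 2.62, adjusted p = 0.0100, edgeR). Genes called lower included the lysophospholipase Pnpla7 (79.3 CPM after CCl4 and 111 CPM in control, log2 -0.49, adjusted p = 0.000797, edgeR), the choline transporter-like gene Slc44a2 (307 CPM after CCl4 and 404 CPM in control, log2 -0.39, adjusted p = 0.000215, edgeR) and the acyltransferases Lpcat1 (log2 -0.42, adjusted p = 0.00338, edgeR) and Agpat3 (log2 -0.30, adjusted p = 0.0175, edgeR). The choline cytidylyl transferase has a second isozyme, Pcyt1b. It held 5.43 to 8.58 CPM in liver Treg cells after CCl4 and 5.49 to 6.97 CPM in control (log2 0.14, adjusted p = 0.895, edgeR).

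In the other CCl4 comparisons the neighbours gave few calls. In liver Tconv cells 1 of 55 was called higher (Pla2g15, 1.82% of the list against 0.326% of all genes tested), in spleen Treg cells 1 was called higher (the sphingomyelin synthase Sgms1, 62.2 CPM after CCl4 and 49.0 CPM in control, log2 0.35, adjusted p = 0.0483, edgeR, 1.82% of the list against 1.18%), and in spleen Tconv cells none was called by edgeR or DESeq2, with 6 at an unadjusted p under 0.05. Between liver and spleen, 16 were called higher and 19 lower in Treg cells, 63.6% of the list against 60.6% of all genes tested, and 14 higher and 17 lower in Tconv cells, 56.4% against 55%. Between Treg and Tconv cells, 13 were called higher and 19 lower in liver, 58.2% against 51.8%, and 13 higher and 11 lower in spleen, 43.6% against 39.7%. Most of these shares lay near the background. The acyltransferase Agpat4 was higher in Treg cells, at 61.0 CPM in liver Treg and 15.1 CPM in liver Tconv cells (log2 2.07, adjusted p = 2.04e-14, edgeR), while Mboat1, another acyltransferase, was lower, at 10.2 CPM in liver Treg and 52.0 CPM in liver Tconv cells (log2 -2.33, adjusted p = 1.27e-18, edgeR). In spleen, Pcyt1b was higher in Treg than in Tconv cells, at 6.04 ± 1.35 CPM in Treg and 1.07 ± 0.745 CPM in Tconv (log2 2.49, adjusted p = 5.11e-07, edgeR).

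Across the 32 libraries, the genes whose log2 CPM followed each member most closely were read by Pearson's r over the 9588 genes compared. These values describe libraries that share groups and carry no test. For Pcyt1a they were Cyp11a1 (r = 0.975), the first enzyme of steroid synthesis, Nrip1 (0.958), a nuclear receptor corepressor, and Impa2 (0.957), an inositol monophosphatase. For Pcyt2 they were Rnf167 (0.950), Entpd6 (0.937) and Dgka (0.937), the last a diacylglycerol kinase. For Chka they were Pnrc1 (0.933), Ptp4a1 (0.930) and Ccnl1 (0.928), and for Chkb Olfr624 (0.913) and Mlxip (0.900). For Etnk1 they were Filip1l (0.909), Slc12a7 (0.908) and Dock11 (0.905), for Cept1 Mylip (0.925), Ms4a4c (0.920) and Slfn2 (0.918), for Selenoi Plin2 (0.850), a lipid droplet protein, Malt1 (0.846) and Slc5a3 (0.838), and for Chpt1 Spryd7 (0.846) and Sf1 (0.834). Among the members themselves, Pcyt1a ran opposite to Cept1 (r = -0.879), Etnk1 (-0.762) and Pcyt2 (-0.742) and with Selenoi (0.723), and Pcyt2 ran with Etnk1 (0.842).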

How the data were processed

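RNA-seq of 32 libraries in 8 groups was read from per-transcript tables made by the authors. Per the file headers, each table holds kallisto's estimated counts and TPM, which the authors deposited. Per the submitters' processing notes, kallisto 0.44.0, bcl2fastq 2.19, DESeq2 and the build GRCm38.p6 were used. No source used here gives the annotation release or the strand setting. Of 118489 transcripts, 98.5% matched GENCODE M21 identifiers and were summed to 35968 genes, and the unmatched ones held 0.684% to 0.823% of the counts of a library.

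Summed estimated counts were rounded to whole numbers, filtered with filterByExpr (17159 genes) and scaled with TMM factors (0.923 to 1.07). An edgeR 4.0.16 quasi-likelihood fit (R 4.3.3) of all 8 groups (24 residual degrees of freedom, common biological coefficient of variation 0.285) gave the tests. Benjamini-Hochberg adjustment ran over all genes tested, with a threshold of 0.05. The SE is the log2 fold change divided by the root of F. Leading transcript shares were tested with exact permutation tests. The code was tested on simulated data. Alternatives were DESeq2 1.42.0, limma 3.58.1 on counts (voom) and on log2(TPM + 1), no filter and the libraries of a comparison alone. Further ones were a replicate block, each library left out and, added after seeing the data, each treatment alone. The block was the sample number, which CCl4 and control libraries share though they come from different mice. For comparisons of organs and of cell types, a block of sample number within treatment was also fitted. Values within a treatment, or in control libraries alone, are contrasts of the fit to all 32 libraries and not separate fits.

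Members and gene lists were chosen with earlier results of these data known. All members are named in every comparison. Of the neighbouring lipid genes, those named are among up to 4 called higher and 4 called lower with the largest fold change per comparison, and the nearest patterns are the 3 genes with the highest r among genes averaging 5 CPM or more, leaving out members and predicted genes. Some genes that fall under these rules are not reported here. Ctps, Ctps2 and Pcyt1b in liver Treg cells were named outside that rule, after their values were seen.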

Additional observations from a re-analysis of the deposited data

Results flagged for a closer look

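The CCl4 log2 fold change of Pcyt1a differed between cell sets in the edgeR fit, by 2.76 between liver Treg and liver Tconv cells and by 1.90 between liver Treg and spleen Treg cells. The log2 difference between liver and spleen differed between Treg and Tconv cells by 2.73 for Pcyt1a, by -0.50 for Cept1 and by -0.90 for Chpt1. The last 2 passed a test of the difference itself (adjusted p = 2.9e-05 and 0.000177, edgeR). Pcyt1a was in view when the pathway was chosen, so its differences are a description with no test.

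In liver Tconv cells after CCl4, the Etnk1 value of library 5 was 106.2 CPM, apart from the other 4 at 132 to 142 CPM by Dixon's test. The test was run on 32 groups of 5 values, and chance gives about 1 in 20 such groups.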

How the results depend on the processing

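Of the member log2 fold changes called in the fit as reported and recomputed under alternatives, 841 kept their direction and side of the threshold, 32 missed the threshold and 1 changed sign (Pcyt2, liver against spleen Treg, 0.043 with limma on log2(TPM + 1)). Values that were not called as reported and gained a call are not in this tally. The tally includes Pcyt1a, and the counts that follow are of all 8 members, Pcyt1a included. Pcyt1a carries no test here, so its part in them is no support for a difference in Pcyt1a. Counts of members called in liver Treg cells after CCl4 were 2 with limma on TPM, against 4, and 2 to 4 with a library left out, the lowest without control library 1 or 2. In spleen after CCl4, DESeq2 called 1 member in Treg cells (Pcyt1a, 0 of the other 7) and 1 in Tconv cells (Pcyt2), against 0. With a library left out the range was 0 to 1 in each, the higher without control library 1. The difference in CCl4 effect between liver and spleen Tconv cells gave 0 to 1, the higher without spleen Tconv control library 1 (Chka -1.29, adjusted p = 0.0141, edgeR). In control libraries alone, 4 members were called between liver and spleen Treg, against 7, while the share of all genes tested was 41.6%, against 60.6%. Between spleen Treg and Tconv 2 were called, against 4, while the share of all genes tested was 22.1%, against 39.7%. The difference in organ contrast between Treg and Tconv gave 5 with limma on TPM, against 3. The cause of these changes was not tested. For the other tools and for left-out libraries, the share of all genes called is not given here. Their counts therefore cannot be read as changes particular to the members. With a library left out, the other counts were 7 and 6 for liver against spleen, 6 to 8 for Treg against Tconv in liver, 4 to 5 in spleen, 3 to 4 for the difference in organ contrast and 4 to 6 transcript shares.

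The replicate numbers did not meet the criterion of every pair over 0.1: same-numbered libraries correlated at -0.0726 to 0.480 (median 0.114), 29 of 48 pairs over 0.1, against a median of -0.0382 and 13 of 156 for different numbers. Samples correlated best with their own number in 76 of 96 comparisons, a hint from the data, not the design. With the replicate block, 3 members were called in liver Treg cells after CCl4 (Etnk1 -0.31, adjusted p = 0.0736, edgeR), and no other count of members changed. That block joins libraries by number across treatments, though CCl4 and control libraries come from different mice. With the block of sample number within treatment, no called member value of the organ and cell type comparisons missed the threshold. The libraries of the organ-difference contrast alone are the whole set, so that fit was not run. Differences of low genes such as Chpt1, at 5.44 to 15.97 CPM, are those that depth limits most.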
